A study of Mus musculus with 4 samples.

Results

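The proteasome subunit genes of the mouse were examined in erythroblasts, the nucleated precursors of red cells, from mice without Parp2 and from wild type mice. Members were all genes with a probe set naming a single symbol of the series Psma, Psmb, Psmc, Psmd or Psme followed by a digit. Probe sets were chosen by brightness, the one of highest mean on the 4 arrays standing for its gene, so the levels themselves are given only as description. The rule found 45 genes on 51 probe sets, of 19938 genes in all. It also took in Psmc3ip, a meiotic recombination factor, and Psme3ip1, which are not subunits. One further probe set, listed to Psme2 and Psme2b together, was left out.

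The study used 4 whole-transcript arrays, each of a sample of bone marrow cells sorted as positive for the erythroid antigen Ter119 and the transferrin receptor CD71. Wild type and knockout samples, labelled WT and Parp-2-/-, numbered 2 each, and both had the C57BL/6 background. The sources used here give no age, sex, treatment, number of animals or kind of null allele. Titles end in a number, 1 or 2, so that each number holds 1 array of each genotype, and no label says what the number marks. Below, title number means this ending one. Titles also begin with a running number, lower for both wild type arrays than for both knockout arrays. Its order thus cannot be told apart from genotype. Separate animals are not stated either. The p-values thus reflect the scatter among these 4 samples alone, part of which may be technical.

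The proteasome degrades proteins marked with ubiquitin. Its core particle is a barrel of alpha rings, which gate the entrance, and beta rings, which hold the proteolytic sites. The regulatory cap binds and unfolds substrates with a base of ATPases and removes their ubiquitin chains with a lid. Interferon and immune lineages bring in the immunoproteasome subunits Psmb8, Psmb9 and Psmb10, which replace Psmb5, Psmb6 and Psmb7 in newly built cores. Maturing red cells use the ubiquitin-proteasome system to remove proteins they no longer need, and later lose proteasomes themselves.

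The transcription factor NRF1 (gene Nfe2l1) is known to raise subunit genes when proteasome activity falls, through the antioxidant response element, searched here as TGACNNNGC on both strands. RefSeq (GRCm38.p6) gave 42 promoters for 38 of the member genes. In the 250 bases before the start, 5 of the 42 member promoters held the motif (11.9%), against 10.2% of 32851 promoters of all genes. These 5 stretches, and the one around the sole match in a member to the interferon-linked gamma-activated sequence (TTCNNNGAA, 2.38% of member and 7.02% of all promoters), are shown because they lie at members described later. Bases run 5′ to 3′ on the gene's strand, and capitals mark the letters matched, on either strand.
Psmb5 (chr14:54618018-54618058, minus strand): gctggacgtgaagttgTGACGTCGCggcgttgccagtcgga
Psmb6 (chr11:70525332-70525356, plus strand): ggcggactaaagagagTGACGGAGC
Psmd9 (chr5:123228143-123228183, plus strand): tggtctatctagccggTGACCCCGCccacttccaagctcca
Psmc6 (chr14:45329581-45329621, plus strand): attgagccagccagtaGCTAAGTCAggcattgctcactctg
Psmd12 (chr11:107479278-107479305, plus strand): tctGCTGTGTCAcatttgcccccctcag
Psmb8, gamma-activated sequence (chr17:34198082-34198122, plus strand): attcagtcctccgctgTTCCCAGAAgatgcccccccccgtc
The matches in Psmb6, Psmd9 and Psmb5 began 9, 31 and 47 bases before the start, and those in Psmc6 and Psmd12 began 227 and 247 bases before it. An interferon-stimulated response element (2 copies of GAAA with 2 bases between, either strand) stood in 3 member promoters, those of Psmb3, Psmd4 and Psmd9 (7.14%, against 2.98% of all promoters). A match of letters is a description and no evidence of binding.

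Values are normalised log2 expression, on which a difference of 1 is a doubling. The targeted gene Parp2 was at 8.24 and 7.65 in wild type replicates 1 and 2 and at 7.11 and 6.70 in the knockout, lower without overlap (-1.04 ± 0.40, limma adjusted p = 0.9999). No source used here says whether its probes lie in the deleted part. Over the annotated probe sets the interquartile range of values was 2.91 and 2.62 on wild type replicates 1 and 2 and 2.94 and 1.98 on the knockout ones. Both arrays whose titles end in 2 thus had a narrower spread than both that end in 1, knockout replicate 2 the narrowest. Array spread and title number cannot be told apart here, and the part of spread in the values was not tested. All 7 measured erythroid markers, among them Tfrc, Slc4a1 and Alas2, lay above the median probe set of 5.36, and so did all 15 neutrophil and all 9 measured B cell markers. Of the members, 43 lay above it, and the testis and thymus subunits Psma8 and Psmb11 did not.

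The first comparison asked whether subunit genes differed between the genotypes. No member passed limma's test at an adjusted p under 0.05 over 23410 probe sets, where 0 probe sets (0%) passed, and 486 (2.08%) had an unadjusted p under 0.05, none of them a member's chosen probe set. Of the 45 members 35 had a lower mean in the knockout, with a median difference of -0.22, against +0.08 over all genes and -0.09 over genes above the median probe set (the brighter genes). This count rested on single arrays: it was 10 (median +0.24) without knockout replicate 2 and 19 (+0.09) without wild type replicate 1, against 42 (-0.73) without knockout replicate 1. After repeated quantile normalisation 25 members were lower, with a median of -0.02. Knockout values were lower without overlap for 3 members only, Psmb8, Psmd5 and Psme3ip1, and higher without overlap for 0. That is 6.67% of members, where 9.62% of all genes and 13.9% of the brighter genes were lower without overlap, and 16.4% and 8.49% were higher. The lower share was near that of all genes, and Psme3ip1 among the 3 is not a subunit. Differences between the title numbers, described below, widen the range within each genotype, so these counts are no result about the family.

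The 3 main groups had different medians. The constitutive core (14 genes) had a median difference of -0.31, the cap (ATPases, base scaffold and lid, 17 genes) of -0.14, and the immunoproteasome (3 genes) of -0.60. Within title number 1 these medians were -0.15, +0.01 and -0.83, and within number 2 they were -0.47, -0.35 and -0.47. After repeated quantile normalisation the cap median turned to +0.04. Leaving out knockout replicate 1 gave a core median of -1.02 and a cap median of -0.67, and leaving out knockout replicate 2 gave +0.40 and +0.39. Without wild type replicate 1 they were +0.27 and +0.09. For the immunoproteasome the value was -0.02 when wild type replicate 1 was dropped and -1.36 when replicate 2 was, and it was below 0 under every alternative run.

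The second comparison set the arrays of title number 2 against those of number 1. Here 42 of the 45 members were lower on the number 2 arrays, with a median of -0.88. The median was +0.09 over all genes and -0.21 over the brighter genes. By group it was -1.09 in the constitutive core, -0.80 in the cap and -0.93 in the immunoproteasome. Both number 2 arrays lay below both number 1 arrays for 37 members (82.2%), a pattern seen in 20.9% of all genes and 36.4% of the brighter ones. In both comparisons the brighter genes were not matched to the members in level. On wild type replicate 1 their mean was 7.30, against 9.39 for the members and 10.41 for the constitutive core. Groups without overlap in the other direction were found for 2 members, Psme3 and Psmb11 (25.4% of all genes and 20% of the brighter ones). The lower level on the number 2 arrays passed limma's adjusted test for Psmb2, Psmb6, Psmb7 and Psmc3ip, 4 of 45, where 3.09% of probe sets passed in either direction and 2.15% as lower. An unadjusted p under 0.05 was reached by 27 members, and all but Psme3 of these were lower (12% of probe sets were lower at that level).

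These calls rest on few arrays. They became 0 without knockout replicate 2 and 0 without wild type replicate 2, 1 (Psmb2) without wild type replicate 1, and 3 (Psmb6, Psmb8 and Psmb10) without knockout replicate 1. They also became 0 with the median of each array set equal, with repeated quantile normalisation and with array weights. The same held with the fit over all rows of the table or over the brighter probe sets. With genotype as a term in the fit 9 members passed, and with trended and robust moderation 15. The direction was kept more widely. Without knockout replicate 2, the array of narrowest spread, 41 of 45 members were lower, at a median of -0.59. The number 2 array left in that run, wild type replicate 2, was itself narrower than both number 1 arrays. That run therefore cannot separate the title number from array spread. After repeated quantile normalisation 38 members were lower, at -0.53. Centring moved the median of all genes from +0.09 to -0.10 and that of the members to -1.06.

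**Figure D1:**
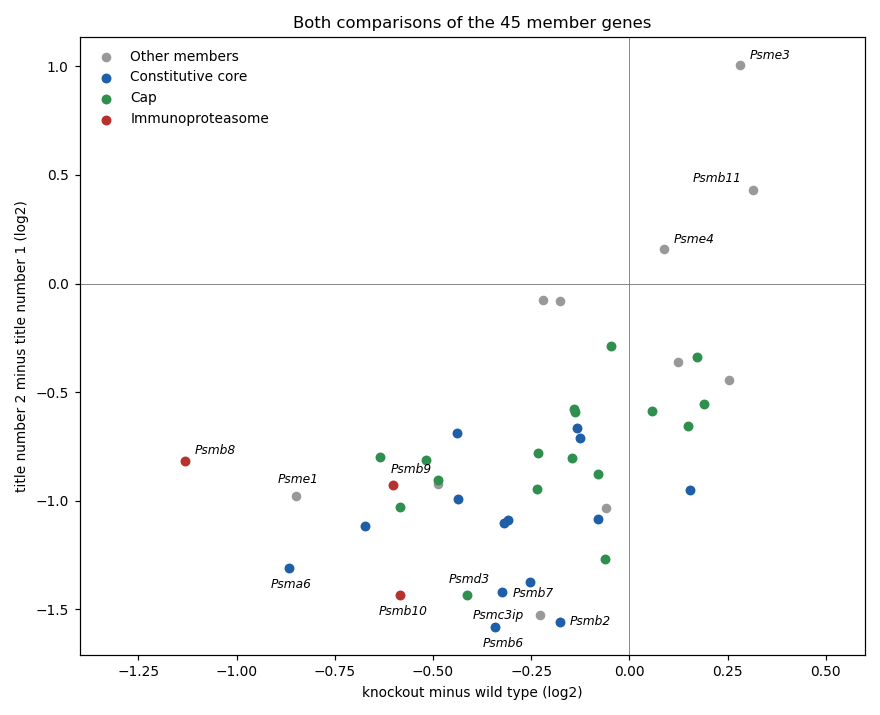
Each point is 1 of the 45 member genes, with the knockout minus wild type difference on the x axis and the title number 2 minus number 1 difference on the y axis, both on the log2 scale. Most points lie below 0 on the y axis, with Psme3 (+1.00), Psmb11 and Psme4 above it, and Psmb8 (-1.13) lies farthest left.

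**Figure D2:**
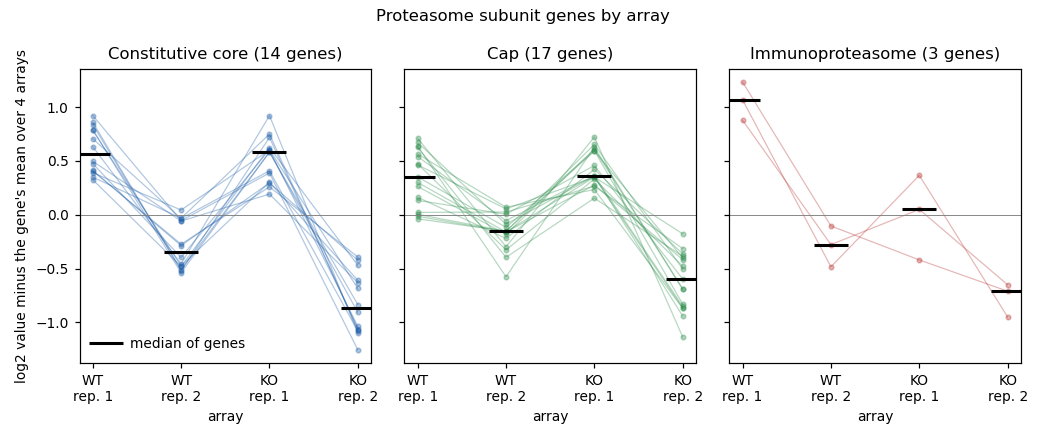
The log2 value of each gene minus its own mean over the 4 arrays is plotted by array, for 14 constitutive core, 17 cap and 3 immunoproteasome genes, with thin lines joining the values of a gene and bars at the median of the genes. In each group the medians are lower on replicate 2 of each genotype, and the immunoproteasome genes are highest on wild type replicate 1.

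The alpha ring genes Psma1 to Psma7 all had lower values on both number 2 arrays, by 0.71 (Psma7) to 1.31 (Psma6) on the log2 scale, and none passed the adjusted test. Psma6 read 10.94 and 9.96 on wild type replicates 1 and 2 and 10.40 and 8.76 on the knockout ones. The lowest value was that of knockout replicate 2, while the ranges of the genotypes overlapped. Its genotype difference of -0.87 ± 0.63 (SE, n = 2 per group) was the most negative of the ring. The chosen probe set of Psma5 had the only positive one, +0.15, with 10.03 and 9.23 in wild type and 10.33 and 9.24 in the knockout. Psma7 read 10.85, 10.15, 10.74 and 10.02 in the same order. Psma7 thus differed far more between the numbers than between the genotypes.

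Among the beta ring genes, Psmb6 and Psmb7 encode the constitutive subunits with caspase-like and trypsin-like activity, and Psmb5 the one with chymotrypsin-like activity. Values of Psmb6 were 10.73 and 9.35 in wild type (replicate 1, then 2) and 10.59 and 8.81 in the knockout. Both number 2 arrays were lower, a difference of -1.58 ± 0.33 (SE, n = 2 per number), or 2.99-fold (limma, adjusted p = 0.0389). Psmb7 read 11.11 and 9.76 in wild type and 10.85 and 9.36 in the knockout. It showed the same order of arrays, with a difference of -1.42 ± 0.33, or 2.68-fold (adjusted p = 0.0492). Psmb5 read 10.47 and 9.59 in wild type and 10.60 and 9.31 in the knockout. Its difference of -1.08 ± 0.32 by number missed the test (limma, adjusted p = 0.0985). By genotype these 3 differed by -0.34 ± 0.70, -0.32 ± 0.65 and -0.08 ± 0.55, each less than its error, and the groups overlapped.

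The structural beta genes were also lower on both number 2 arrays. Psmb2 read 10.74 and 9.65 in wild type and 11.03 and 9.0 in the knockout, a difference by number of -1.56 ± 0.35, or 2.94-fold (limma, adjusted p = 0.0452). By genotype Psmb2 differed by only -0.18 ± 0.72, since the knockout arrays were the highest and the lowest of the 4. Psmb4 read 11.09 and 10.53 in wild type and 10.78 and 9.96 in the knockout, and Psmb1 read 9.38, 8.70, 9.23 and 8.58 in that order. Psmb4 and Psmb1 had the smallest differences by number of the beta ring, -0.69 and -0.67, without overlap between the numbers. The chosen probe set of Psmb3 differed by -1.37 ± 0.32, just outside the test (limma, adjusted p = 0.0510).

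**Figure D3:**
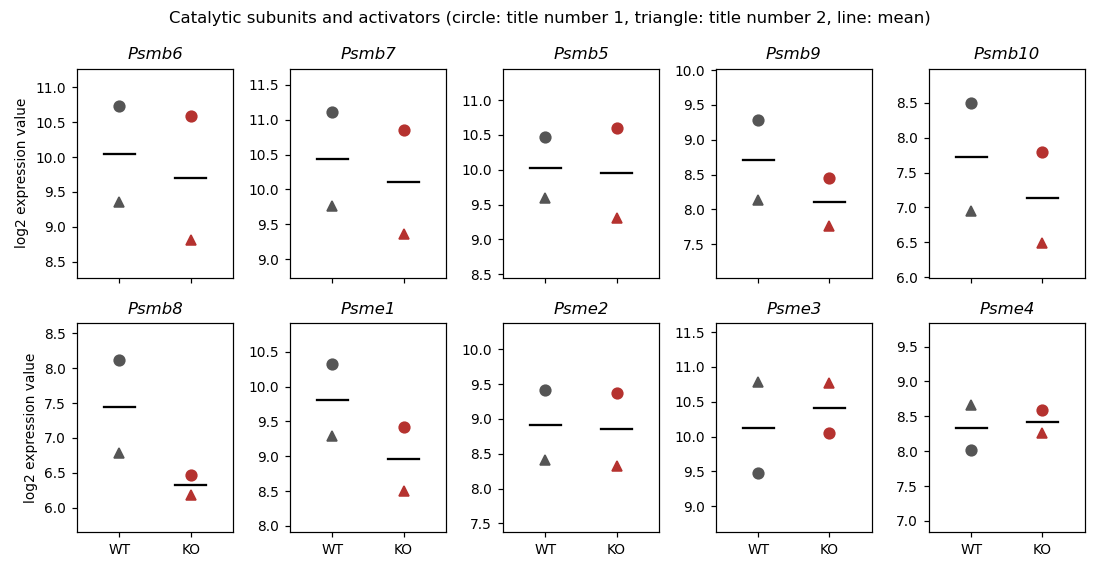
Log2 values of the 3 constitutive and 3 immunoproteasome catalytic subunits and the 4 activator genes are plotted by genotype, with circles for title number 1, triangles for number 2 and lines at the mean of the 2 arrays. Each panel spans 3 log2 units. In Psmb8 both knockout arrays lie below both wild type arrays, and Psme3 has its triangles above its circles.

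The immunoproteasome subunits had the most negative group median by genotype. Psmb8, the counterpart of Psmb5, stood at 8.12 and 6.78 in wild type, by replicate, and at 6.47 and 6.18 in the knockout. The genotypes did not overlap, and wild type replicate 1 stood well above the other 3. The difference was -1.13 ± 0.51 (SE, n = 2 per group), a 2.19-fold lower mean, with an unadjusted limma p of 0.0636 and an adjusted p of 0.9999. It was -0.46 when wild type replicate 1 was left out and -1.80 when the other was. Psmb9, the counterpart of Psmb6, read 9.29 and 8.13 in wild type and 8.46 and 7.76 in the knockout. Psmb10, the counterpart of Psmb7, read 8.50 and 6.95 in wild type and 7.80 and 6.48 in the knockout. For Psmb9 and Psmb10 the knockout array was the lower one at each number, but the genotypes overlapped. Their differences were -0.60 ± 0.51 and -0.58 ± 0.65, and neither passed. That of Psmb10 became +0.07 without knockout replicate 2 and +0.19 without wild type replicate 1, and that of Psmb9 -0.02 without wild type replicate 1. By number, Psmb10 differed by -1.44 ± 0.36, 2.70-fold lower on the number 2 arrays (limma, adjusted p = 0.0629).

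Each immunoproteasome subunit was also read against the constitutive subunit it replaces, as the change of their log2 ratio from the wild type mean, a comparison chosen after the values were seen. For Psmb8 against Psmb5 the ratio stood at +0.23 and -0.23 in wild type and at -1.55 and -0.55 in the knockout. Both knockout arrays were lower, by 1.05 on average, a 2.07-fold unequal change within the arrays. For Psmb10 against Psmb7 it stood at +0.10 and -0.10 in wild type and at -0.35 and -0.17 in the knockout, again lower on both knockout arrays, with a mean of -0.26. For Psmb9 against Psmb6 it stood at -0.11 and +0.11 in wild type and at -0.80 and +0.28 in the knockout, so that the genotypes overlapped. These ratios were not tested.

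Immune lineages are known for high immunoproteasome expression, and markers of several of them differed between the genotypes. The summed linear levels of 15 neutrophil markers were 42015 and 35098 on wild type replicates 1 and 2 and 24267 and 19185 on the knockout arrays. Those of 9 B cell markers were 1201 and 1736 in wild type and 590 and 716 in the knockout, and those of 12 monocyte and macrophage markers 5979 and 5942 against 3250 and 3513. The 9 T and NK cell markers summed to 1005 and 578 in wild type and to 353 and 426 in the knockout, and the 9 markers of mast cells, basophils and eosinophils to 1667 and 813 against 485 and 524. In each of these 5 sums the genotypes did not overlap, the knockout being lower. The monocyte and macrophage sum leaned on Lyz2, by far its brightest marker, and the sum of its other markers overlapped between the genotypes. Lyz2 read 12.05 and 11.79 in wild type and 11.23 and 10.67 in the knockout. The T and NK cell sum rested on Nkg7: the other 8 markers summed to 258 and 320 in wild type and 198 and 296 in the knockout, with overlap, and only 3 of the 9 lay above the median probe set. Of the markers 15 of 15, 7 of 9, 10 of 12, 7 of 9 and 8 of 9 had a lower knockout mean in the order of the sums, and no marker was at 0. Lower without overlap were 12, 7, 4, 3 and 3 of them, where 9.62% of all genes and 13.9% of the brighter ones were. In the T and NK cell list 1 marker was higher without overlap. Their part in the values of Psmb8, Psmb9 and Psmb10 was not tested, and in sorted bulk samples fewer cells of a type and less RNA per cell cannot be told apart. The 6 megakaryocyte and platelet markers summed to 471 and 621 in wild type and 395 and 679 in the knockout, with overlap.

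Immunoproteasomes feed class I antigen presentation. Of 10 listed genes of that pathway 9 were measured, 6 had a lower mean in the knockout, and the median was -0.22. Lower without overlap were 4 (Erap1, Irf8, Irf1 and Tapbp), where 9.62% of all genes and 13.9% of the brighter ones were. Erap1, an aminopeptidase that trims peptides, differed by -0.68, the myeloid and lymphoid factor Irf8 by -0.64, and Nlrc5, an activator of class I genes, by +0.58. By number the median was +0.03, with Nlrc5 at +0.66, B2m at -0.48 and Tapbpl at +0.37. Tap1, which lies beside Psmb9 and encodes a peptide transporter subunit, read 6.81 and 6.96 in wild type and 7.10 and 6.75 in the knockout, a difference of +0.04 ± 0.36 by genotype and of -0.10 by number. No gene of this list passed either test.

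The ATPase genes of the cap, Psmc1 to Psmc6, which unfold substrates, were all lower on both number 2 arrays, by 0.55 (Psmc5) to 1.27 (Psmc1). Psmc1 read 9.96 and 8.74 in wild type and 9.95 and 8.63 in the knockout. The genotypes differed by -0.06 ± 0.60 and the numbers by -1.27 ± 0.31, just outside the test (limma, adjusted p = 0.0583). Psmc5 read 9.84 and 9.72 in wild type and 10.47 and 9.47 in the knockout, and had the highest genotype difference of the ring, +0.19 ± 0.44. Psmc6 read 9.42 and 8.93 in wild type and 9.09 and 7.99 in the knockout, and had the lowest, -0.64 ± 0.48. In Psmc6 the knockout array was lower at each number, and in Psmc5 only at number 2.

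The base scaffold genes differed less by number. Psmd4, a ubiquitin receptor, read 9.52 and 9.37 in wild type and 9.88 and 9.36 in the knockout, a difference of -0.34 by number that became +0.02 after repeated quantile normalisation. Psmd1 read 9.36 and 9.20 in wild type and 10.01 and 8.85 in the knockout, and Psmd2 read 9.91, 9.45, 9.89 and 9.20 in that order. Psmd1 and Psmd2, the large scaffolds of the base, differed by -0.66 and -0.58 by number, and by +0.15 and -0.14 by genotype. None of the 3 had an unadjusted p under 0.05.

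By number the lid genes ranged most widely within the cap, from -1.43 to -0.29, and by genotype the ATPases did. Psmd3 read 9.34 and 8.33 in wild type and 9.35 and 7.49 in the knockout, a difference by number of -1.43 ± 0.36, or 2.70-fold (limma, adjusted p = 0.0629). The number 1 arrays of the genotypes coincided and the number 2 arrays did not. Psmd13 read 8.55 and 8.55 in wild type and 8.79 and 8.21 in the knockout, a difference of -0.29 ± 0.32 by number, which turned to +0.14 after repeated quantile normalisation. Psmd13 was the only cap gene whose numbers overlapped. Psmd6 read 10.16 and 9.40 in wild type and 9.84 and 8.55 in the knockout, and had the lowest genotype difference of the lid, -0.58 ± 0.54. Psmd14, the deubiquitinase of the lid, differed by -0.91 ± 0.36 by number and by -0.49 ± 0.51 by genotype. The other lid genes Psmd7, Psmd8, Psmd11 and Psmd12 lay between -0.95 and -0.59 by number and between -0.24 and -0.14 by genotype.

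Psmd5, Psmd9 and Psmd10 encode chaperones that help to assemble the base and leave the finished cap. Psmd9 read 9.35 and 8.35 in wild type and 8.78 and 7.94 in the knockout, a difference of -0.92 ± 0.35 by number and of -0.49 by genotype. Psmd5 read 8.31 and 8.31 in wild type and 8.17 and 8.01 in the knockout, so that both knockout arrays were lower, by a mean of 0.22 that was smaller than its error of 0.35. Psmd10, also known as gankyrin, read 8.06 and 8.42 in wild type and 9.12 and 7.87 in the knockout, the knockout arrays being the highest and the lowest. The numbers overlapped for Psmd5 and Psmd10.

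Of the activator genes, Psme1 and Psme2 were lower on both number 2 arrays and Psme3 was higher on both. Psme1 and Psme2 encode PA28 alpha and beta, the interferon-inducible ring that opens the core. Psme1 read 10.32 and 9.29 in wild type and 9.42 and 8.50 in the knockout, a difference of -0.85 ± 0.51 by genotype and of -0.98 ± 0.41 by number. At each number the knockout array was the lower one, by 0.91 and 0.79, although the genotypes overlapped. Psme2 read 9.42 and 8.40 in wild type and 9.38 and 8.33 in the knockout, with -0.06 by genotype and -1.03 ± 0.31 by number (limma, adjusted p = 0.106).

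Psme3 encodes PA28 gamma, a nuclear activator. Its values were 9.48 and 10.78 in wild type and 10.05 and 10.77 in the knockout. Both number 2 arrays were higher, a difference of +1.00 ± 0.34, or 2.01-fold, not past the test (limma, adjusted p = 0.138). It lay between +0.72 and +1.35 under every alternative run. Psme4, which encodes the activator PA200, read 8.02 and 8.66 in wild type and 8.59 and 8.26 in the knockout. Its difference by number was +0.16 ± 0.35, and the numbers overlapped. Of the 43 brighter members, Psme3 and Psme4 were the ones with a higher mean on the number 2 arrays.

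Psmc3ip, which is not a subunit, read 8.88 and 7.51 in wild type and 8.81 and 7.13 in the knockout. Its difference by number was -1.52 ± 0.32, or 2.88-fold (limma, adjusted p = 0.0388). Psme3ip1 read 7.96, 7.73, 7.63 and 7.70 in the same order and differed by -0.08 by number. Psmb11 and Psma8 stayed between 3.97 and 5.44 on the 4 arrays.

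Genes of the wider pathway were then set beside the members. Among 12 measured genes for proteasome assembly and accessory factors, 10 were lower on the number 2 arrays, 9 of them without overlap, and the median was -0.71. By that measure 20.9% of all genes and 36.4% of the brighter ones were lower without overlap. Akirin2 (+0.62) was higher without overlap. The core assembly chaperones Psmg1 (-2.06, limma adjusted p = 0.0239) and Psmg3 (-1.41, adjusted p = 0.0472) fell. The chaperone Psmg4 differed by -1.71 (limma, adjusted p = 0.0907), the deubiquitinase Uchl5 by -1.12 and the maturation factor Pomp by -0.93. Psmg1 read 8.83 and 6.52 in wild type and 8.13 and 6.32 in the knockout. By genotype the list's median was -0.27, with Psmg4 at -1.19, Uchl5 at -0.43 and Ecpas at -0.34, and none of the 12 passed.

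The factors that drive the NRF1 response showed no common direction. Of 9 listed genes 8 were measured, with medians of -0.05 by number and +0.06 by genotype. Nfe2l1 read 7.52 and 7.99 in wild type and 8.03 and 7.89 in the knockout. The ubiquitin-extraction ATPase Vcp differed by -0.50 by number, the ubiquitin ligase Syvn1 by -0.63 and Nploc4 by +0.41. By genotype Ngly1, which removes glycans from NRF1, was at -0.49, Syvn1 at -0.23 and Sel1l at +0.34. None of the 8 passed either test.

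Of 11 genes for ubiquitin supply and shuttles only 5 had a probe set of their own, and all 5 had lower means on the number 2 arrays (median -0.71) and in the knockout (median -0.36). The shuttle genes Rad23b and Ubqln1 differed by number by -1.60 (limma, adjusted p = 0.0637) and -1.03, and Ubqln2 by -0.71. By genotype Uba6 was at -0.52, Rad23b at -0.49 and Ubqln1 at -0.36. None passed either test.

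Ubiquitin enzymes known for erythroid roles had the opposite order by number. Of 10 measured, 8 were higher on the number 2 arrays, with a median of +1.16. Of these 7 were higher without overlap, where 25.4% of all genes and 20% of the brighter ones were. Maea (-0.89) and Ranbp9 (-0.35) were lower without overlap. The adjusted test was passed by 4, where 3.09% of probe sets passed in either direction. Ube2l6 (+2.01, limma adjusted p = 0.0247), Ube2o (+1.92, adjusted p = 0.0311), Trim58 (+2.84, adjusted p = 0.0387) and Ube2h (+2.01, adjusted p = 0.0404) rose. As with the members, these calls and those of Psmg1, Psmg3 and the other Psmb3 probe set were lost without either number 2 array, with all rows, with centred arrays and after repeated quantile normalisation, where 0 probe sets passed. Ube2o is a conjugating enzyme that clears ribosomal proteins in reticulocytes, and it read 8.27 and 10.67 in wild type and 9.15 and 10.59 in the knockout. Trim58, a ligase of late erythroblasts, read 5.04 and 9.29 in wild type and 7.24 and 8.66 in the knockout. By genotype the median was +0.28, with Rmnd5a at -0.75, Maea at -0.69 and Ranbp9 at -0.35, and none of the 10 passed.

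**Figure D4:**
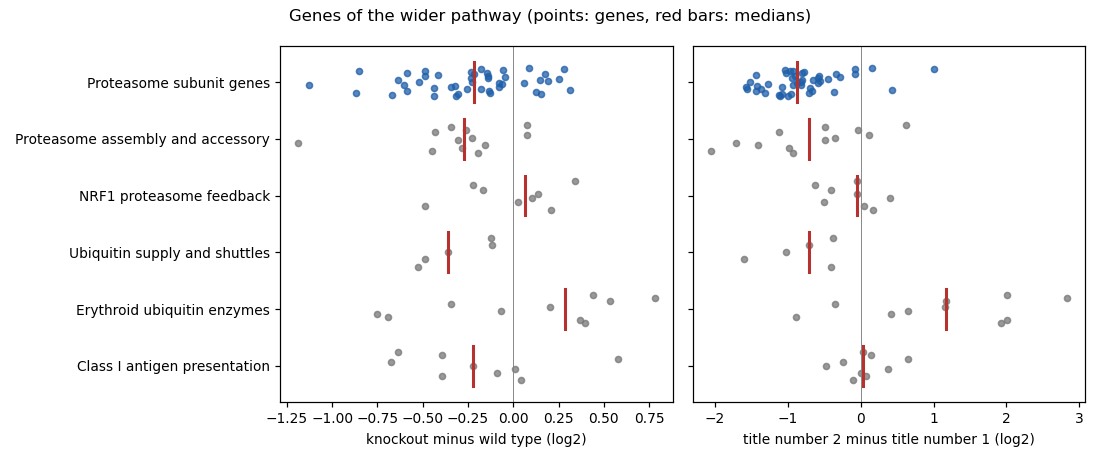
Differences on the log2 scale are shown for the 45 proteasome subunit genes and for 5 lists of the wider pathway, by genotype on the left and by title number on the right, with points for genes and red bars for medians. By number the members (-0.88) and assembly factors (-0.71) lie to the left and the erythroid ubiquitin enzymes (+1.16) to the right.

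Some markers of several cell types differed by title number as well. The 7 erythroid summed linear levels were 10071 and 13684 on the number 1 arrays of wild type and knockout and 21949 and 20033 on the number 2 arrays. Both number 2 arrays were higher, 5 of the 7 markers without overlap, where 25.4% of all genes and 20% of the brighter ones were. Alas2, the first enzyme of heme synthesis, was at +1.51 and Slc4a1, the band 3 anion exchanger, at +1.03. The erythroid transcription factors Klf1 (-0.28) and Gata1 (-0.045) differed the other way, and no erythroid marker passed the test. Of the 15 neutrophil markers 14 had a lower mean on the number 2 arrays (median -1.01), and none passed. Only 3 were lower without overlap, where 20.9% of all genes and 36.4% of the brighter ones were. They ranged from Elane (-2.19) to Ly6g (+0.15), with S100a8 (-0.016) and S100a9 (-0.014) near 0. The neutrophil sums overlapped, at 42015 and 24267 on the number 1 arrays and 35098 and 19185 on the number 2 arrays. Of the 12 monocyte and macrophage markers 8 were higher (median +0.39), and Vcam1 (+2.20, limma adjusted p = 0.0229) and Mrc1 (+2.00, adjusted p = 0.0307) passed. The other 4, Ccr2 (-1.15), Lyz2 (-0.41), Cd14 (-0.26) and Cd68 (-0.24), were lower. The sums of this list overlapped, at 5979 and 3250 on the number 1 arrays and 5942 and 3513 on the number 2 arrays. All 6 megakaryocyte and platelet markers had higher means, and Ppbp (+2.12, limma adjusted p = 0.0493) passed. Of all probe sets 3.09% passed in either direction. On the number 1 arrays of wild type and knockout Mrc1 read 5.37 and 5.14 and Ppbp 3.83 and 5.50, near or below the median probe set of 5.36. The calls of Vcam1, Mrc1 and Ppbp too were among those lost where 0 probe sets passed. The part of these markers in the subunit values by number was not tested.

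For 5 members several probe sets named the gene alone. Neighbouring probe sets in ID order, 10 to each side, were used to see where each lies, a check made after the values were seen. The chosen probe sets of Psma3, Psma5 and Psmb3 stood among genes of chromosomes 6, 10 and 16, while RefSeq places these genes on chromosomes 12, 3 and 11, and the other probe sets included one among neighbours of the gene's own chromosome. Whether the brighter ones read processed copies was not tested. For Psmb3 the choice changed a call: the probe set among its own neighbours read 11.10 and 8.47 in wild type and 10.74 and 8.17 in the knockout. It differed by -2.60 ± 0.33 by number (limma, adjusted p = 0.0125), against -1.37 for the chosen one, and with own-chromosome probe sets 5 members passed by number in place of 4. For Psma3 the 3 probe sets differed by -1.15 to -1.03, and for Psma5 the other probe set by -0.79. By genotype the other Psma5 probe set differed by -0.02, against +0.15 for the chosen one. The other Psmc1 probe set differed by -0.33, against -0.06 for the chosen one. For Psmc1 the chosen one stood among neighbours of the gene's own chromosome 12, and the other among those of chromosome 16.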

How the data were processed

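Per the labels' protocols, 100 ng of RNA from each of 4 samples went onto Affymetrix arrays that read whole transcripts. The authors deposited log2 values for 35511 probe sets. RMA, limma and R 3.0.2 are named in the submitters' processing notes without their roles, and no genome build is named. Columns were matched to samples by name, and no further normalisation was done.

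In the platform annotation 21789 probe sets had 1 symbol, 1621 had several and 12101 had none. Limma 3.58.1 (R 4.3.3, lmFit and eBayes) was fitted over the 23410 annotated probe sets, 2 arrays against 2, by genotype and again by the number ending the title, each with 2 residual degrees of freedom. Calls needed p under 0.05 after Benjamini-Hochberg adjustment. The fit was also run on simulated arrays of independent noise with known changes added. Those held no title number effect and no unequal spread between arrays, so that run does not cover these features. The number of arrays limits precision. Members and lists were chosen with earlier results of these data known, so lists are described by counts and medians only.

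Values by array were given for the catalytic, immunoproteasome and activator genes, members past a test and the extremes of each role group. For other lists the genes of lowest p were named, others being chosen after their values were seen. Genes resembling the core over arrays were not sought, 4 arrays being too few. Repeated quantile normalisation was run over the annotated probe sets only. Whether the deposited values had been quantile normalised before is not stated. Alternatives were the other factor as a term, leaving out each array, centring, repeated quantile normalisation, the brighter probe sets, all rows, array weights, trended and robust moderation, an adjusted p under 0.1 and other probe sets of a gene.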

Additional observations from a re-analysis of the deposited data

Results flagged for a closer look

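In 5 of the 45 genes the title numbers differed in opposite directions in the 2 genotypes, with 1 array each, so the difference was not tested. The number 2 minus number 1 difference on the log2 scale was +0.64 in wild type and -0.32 in the knockout for Psme4, and +0.36 and -1.25 for Psmd10. It was +0.0031 and -0.58 for Psmd13, and +0.0033 and -0.16 for Psmd5. For Psme3ip1, which is not a subunit, it was -0.23 in wild type and +0.068 in the knockout.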

How the results depend on the processing

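With the title number as a replicate block the genotype fit called 274 probe sets and 0 members, and with trended and robust moderation 8. The number 2 minus number 1 differences of the genotypes correlated at 0.468 over probe sets, but with only 2 pairs and no label naming what the number marks, the samples share only a number. Leaving out 1 array gave 0 to 62 genotype calls, with group medians of -1.02 to 0.40 (core), -0.67 to 0.39 (cap) and -1.36 to -0.02 (immunoproteasome).

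By title number, probe sets called were 0 with all rows, 0 with centred arrays, 0 after repeated quantile normalisation, 10 with array weights, 182 among the brighter probe sets, 2121 with genotype as a term, 2190 with trended and robust moderation, 1648 at an adjusted p under 0.1, and 0 to 1178 with 1 array left out. Members called were 0, 0, 0, 0, 0, 9, 15 and 9 in that order, and 0 to 3 with 1 array left out. Repeated quantile normalisation moved the core median to -0.76 and the cap median to -0.39. Without 1 array the medians ran from -1.53 to -0.82 (core), -0.89 to -0.51 (cap) and -1.64 to -0.51 (immunoproteasome).

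Among the 29 genes refitted one by one, repeated quantile normalisation turned the genotype difference to +0.072 for Psmb5, +0.12 for Psme2, +0.042 for Psma7, +0.030 for Psmb1, +0.093 for Psmc1, +0.0035 for Psmd2 and +0.14 for Psmd13. It turned the number difference to +0.022 for Psmd4, +0.14 for Psmd13 and +0.36 for Psmd5, and centring turned that of Psme4 to -0.027. The cause of these changes was not tested.

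Leaving out 1 array in turn gave genotype differences on both sides of 0 for 22 of these 29 genes. Among catalytic and activator genes the ranges were -0.73 to 0.57 (Psmb5), -1.23 to 0.55 (Psmb6), -1.07 to 0.42 (Psmb7), -1.36 to 0.19 (Psmb10), -0.58 to 0.47 (Psme2), -0.37 to 0.93 (Psme3) and -0.23 to 0.41 (Psme4). In the rest of the core they were -1.19 to 0.83 (Psmb2), -0.39 to 0.70 (Psma5), -0.49 to 0.23 (Psma7) and -0.47 to 0.21 (Psmb1). In the ATPases and base they were -0.31 to 0.69 (Psmc5), -0.72 to 0.60 (Psmc1), -0.091 to 0.44 (Psmd4), -0.49 to 0.21 (Psmd2) and -0.43 to 0.73 (Psmd1). In the lid, chaperones and Psmc3ip they were -0.34 to 0.24 (Psmd13), -1.23 to 0.064 (Psmd6), -1.34 to 0.52 (Psmd3), -0.37 to 0.88 (Psmd10), -0.99 to 0.013 (Psmd9) and -1.07 to 0.62 (Psmc3ip). Number differences did so for Psmb8 (-1.64 to 0.012), Psme4 (-0.13 to 0.44), Psmd10 (-0.97 to 0.085) and Psmd5 (-0.23 to 0.072). Of these 29, the genotype difference stayed below 0 under every alternative run for 7, namely Psmb8, Psmb9, Psme1, Psma6, Psmb4, Psmc6 and Psmd5.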
